A study of Mus musculus with 18 samples.

Results

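BMS641 is a synthetic retinoid that, per the labels, is specific for the retinoic acid receptor RARβ. The 4 arrays of F9 cells given 1 µM BMS641 for 2, 6, 24 or 48 h were set against the 2 arrays of F9 cells given ethanol vehicle for 48 h, so 6 of the 18 arrays of the series are described here, chosen by agent and time from their labels. F9 is a mouse embryonal carcinoma line that differentiates towards endoderm when given retinoic acid, and its total RNA was hybridised to Affymetrix arrays that cover whole transcripts. The other 12 arrays, used for comparison, were 4 each (1 at each of the same times) of 1 µM BMS753, labelled as specific for RARα, of 1 µM all-trans retinoic acid (ATRA), which activates all RARs, and of 0.1 µM BMS961, labelled as specific for RARγ. All cells were grown in serum on gelatine, per the labels, and all arrays come from this 1 line. There was no vehicle array at 2, 6 or 24 h and no untreated array, so time with BMS641 and time in culture cannot be told apart. With 1 array per time there is no replicate within a time. Nothing in the labels tells if the 2 vehicle arrays are of separate cultures, so the spread between them may be technical. The p-values below rest on that spread and on how far the retinoids differ in their steps between times. They do not measure a spread between replicates of a retinoid and time.

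RARs are nuclear receptors that pair with RXRs and sit on retinoic acid response elements, where they hold target genes down without ligand and switch them on with it. Rarb is itself a textbook target of the other RARs, through such an element next to its start site, so that its transcript usually climbs when RARα or RARγ is activated. Cyp26a1, the hydroxylase that breaks retinoic acid down, is the other classical target and acts as feedback. In F9 cells retinoids also raise Hox genes and, later, genes of primitive and parietal endoderm.

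The promoters of Rarb and Cyp26a1 are shown because both genes lay well above vehicle with the other retinoids in these arrays, and the comparison with BMS641 turns on them. The sequences are 300 bases around the annotated start from RefSeq (GRCm38.p6), read on the strand of the gene, and the capitals mark 2 hexamers spaced by 5 bases (a DR5 element). The hexamers searched on both strands were AGGTCA and AGTTCA, with GGGTCA and with GGTTCA as further forms. The Rarb window lies at chr14:16575427-16575726 on the minus strand and the Cyp26a1 window at chr19:37697558-37697857 on the plus strand.
Rarb: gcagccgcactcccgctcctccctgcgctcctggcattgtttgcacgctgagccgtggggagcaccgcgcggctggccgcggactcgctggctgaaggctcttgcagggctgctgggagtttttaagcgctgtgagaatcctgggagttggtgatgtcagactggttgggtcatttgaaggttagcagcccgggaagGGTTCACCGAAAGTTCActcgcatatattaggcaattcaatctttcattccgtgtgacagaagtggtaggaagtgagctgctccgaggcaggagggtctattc
Cyp26a1: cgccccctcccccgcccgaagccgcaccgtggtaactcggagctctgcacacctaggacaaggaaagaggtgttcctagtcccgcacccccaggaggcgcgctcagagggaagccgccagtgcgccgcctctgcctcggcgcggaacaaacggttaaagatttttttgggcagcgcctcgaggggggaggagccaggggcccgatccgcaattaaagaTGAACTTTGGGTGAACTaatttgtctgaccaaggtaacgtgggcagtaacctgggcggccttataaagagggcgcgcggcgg
The Rarb repeat, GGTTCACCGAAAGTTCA, ended 37 bases before the start. The Cyp26a1 repeat reads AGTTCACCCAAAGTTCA on the other strand and ended 16 bases before the start. A DR5 repeat of these hexamers was found in 32 of 32851 promoter windows (0.0974%), against 88 windows (0.268%) for a spacing of 2 bases and 73 (0.222%) for a spacing of 1 base.

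The 2 vehicle arrays stood apart from each other more than any BMS641 array did from either of them. Values are log2 levels, so a difference of 1 is 2-fold, and 19938 genes were compared. The median absolute difference between 2 arrays was 0.104 to 0.157 among the BMS641 arrays, with 2 to 30 genes at least 2-fold apart. BMS641 lay 0.123 to 0.186 from vehicle replicate 2, with 5 to 64 such genes, and 0.176 to 0.216 from vehicle replicate 1, with 379 to 597. The 2 vehicle arrays differed by 0.233, with 665 genes 2-fold apart, 311 of them higher and 354 lower in replicate 1. Of these 665 genes, 95.6%, 88.1%, 91.1% and 83.2% were nearer to vehicle replicate 2 in the BMS641 arrays at 2, 6, 24 and 48 h. The same share was 88.9%, 90.5%, 68.3% and 53.4% in the BMS753 arrays, 91.0%, 77.7%, 59.7% and 44.2% in the BMS961 arrays, and 53.2%, 32.3%, 3.31% and 24.1% in the ATRA arrays. No label names a batch. A block that puts ATRA with vehicle replicate 1 and the BMS compounds with vehicle replicate 2, called the array set below, was tried as an assumption, and these shares do not split that way throughout: ATRA at 2 h and BMS753 at 48 h had nearly the same share. Vehicle replicate 1 had Stra8 at 8.44 and Rarb at 5.79, against 5.17 and 4.45 in replicate 2. Cyp26a1 was close in the 2 arrays, at 5.05 in replicate 1 and 4.85 in replicate 2, beside 10.06 to 12.01 with ATRA. Hoxa5 and Nrip1, given below, were also close. Whether the label of vehicle replicate 1 holds was not tested. A comparison of BMS641 with vehicle therefore depends on which vehicle array is used, and each is given below.

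Almost no gene lay 2-fold beyond both vehicle arrays with BMS641. At 2 h no gene lay at least 2-fold above both vehicle arrays and none lay 2-fold below both (each 0.0% of 19938 genes). At 6 h none lay above (0.0%) and 3 lay below (0.015%): Mir363, Rpl34 and Cfap300. At 24 h 1 gene lay above (0.00502%) and none below (0.0%), and at 48 h 1 lay above (0.00502%) and 1 below (0.00502%). The gene above was Ccnd2, a D-type cyclin, at both times, and the gene below was Otx2, a homeobox factor of the early epiblast. At the same times and dose BMS753 had 1, 4, 19 and 50 genes above and 4, 1, 5 and 15 below. ATRA had 91, 81, 106 and 650 above and 52, 39, 60 and 116 below. BMS961, at its lower dose of 0.1 µM, had 5, 16, 93 and 202 above and 2, 13, 25 and 70 below. All of these counts share the 2 vehicle arrays.

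**Figure D1:**
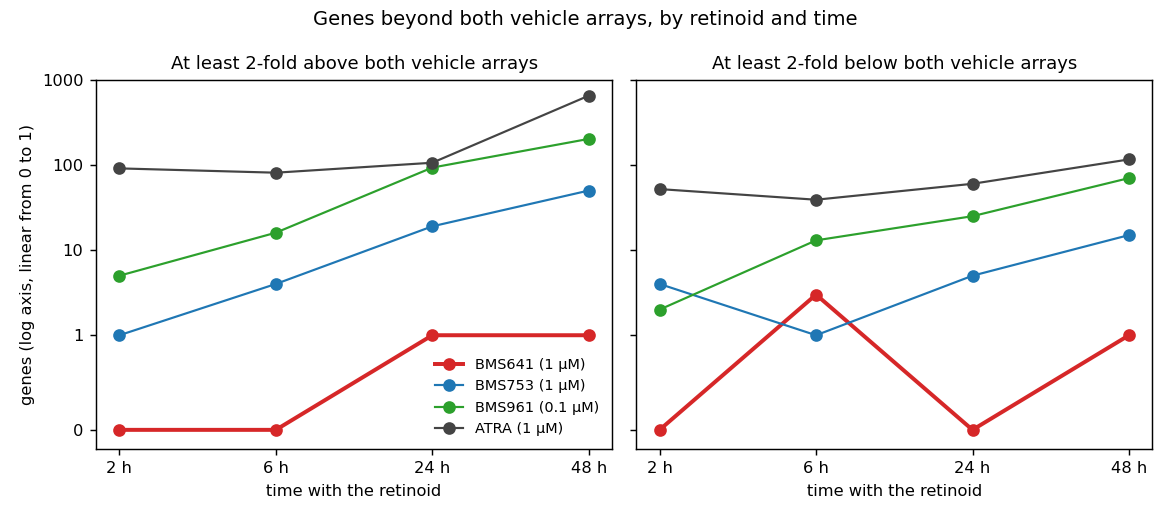
Number of genes at least 2-fold above (left) or below (right) both vehicle arrays, on an axis that is logarithmic above 1 and linear from 0 to 1, by time for each retinoid (1 array per point). The BMS641 points lie at 0 to 3 genes, and the 48 h points of BMS753 lie at 50 and 15 and those of ATRA at 650 and 116.

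The linear model in limma, with the spread shared over all 18 arrays, called no gene in BMS641 against vehicle at a Benjamini-Hochberg adjusted p under 0.05. This held early (2 and 6 h; 1501 genes at an unadjusted p under 0.05), late (24 and 48 h; 916 genes) and over the 4 times (1584 genes), which is 0.0% called in either direction in each. The lowest adjusted p in limma was 0.618 early, 0.995 late and 0.561 over the 4 times. The median 95% interval of a gene reached 0.348 either side of its change early and late, and 0.302 over the 4 times. With vehicle replicate 1 alone as the reference (without replicate 2), the same fit called 1466 genes early, 1024 late and 1738 over the 4 times. With vehicle replicate 2 alone it called 0 early, 2 late and 0 over the 4 times. The late genes were Alpl, an alkaline phosphatase, at 1.26, and Efnb1, an ephrin, at 1.29.

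Rarb stayed flat under the agonist labelled as specific for its product. The Rarb level was 4.92, 5.03, 4.92 and 4.97 with BMS641 at 2, 6, 24 and 48 h, against 5.79 and 4.45 in vehicle replicates 1 and 2, so all 4 arrays lay between the vehicle arrays. Over the 4 times it differed from vehicle by -0.16 (95% interval -0.82 to 0.50), and without vehicle replicate 1 by 0.50. With BMS753 the level was 5.21, 5.90, 7.05 and 7.82 at the same times, with ATRA 7.58, 7.50, 8.39 and 9.27, and with 0.1 µM BMS961 5.95, 6.52, 8.05 and 8.52. BMS641 lay below BMS753 and below ATRA at all 4 times. The difference to BMS753 over the 4 times was -1.54 (95% interval -2.08 to -1.0), which missed the threshold across all genes (limma adjusted p = 0.14). The difference to ATRA was -3.22 (SE 0.25; limma adjusted p = 6.23e-05), and -1.89 with the array set as a block, which did not pass. The level of RARβ protein was not measured here.

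The other receptor genes were steady over the 4 times. Rarg, the receptor that mediates much of the retinoid response of F9 cells, had levels of 9.32, 9.43, 9.37 and 9.20 with BMS641, against 8.90 and 9.09 in vehicle. Rara had 8.09, 7.99, 8.06 and 8.02 with BMS641, against 7.63 and 7.82 in vehicle. Rxra, an obligate partner, had 6.91, 6.96, 6.90 and 6.81 with BMS641, against 6.56 and 6.61 in vehicle. All 4 BMS641 arrays thus lay above both vehicle arrays for these 3 genes, with limma adjusted p of 0.589 for Rarg, 0.689 for Rara and 0.561 for Rxra over the 4 times. Rxrb was 7.85, 7.71, 7.65 and 7.68 with BMS641, against 7.64 and 7.66 in vehicle.

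Of the 21 measured genes of the list of retinoid receptors and retinoid metabolism, 7 had all 4 BMS641 arrays above both vehicle arrays and none had all 4 below. The same was true of 10.6% of all genes above and 5.5% below. Besides Rara, Rarg and Rxra the 7 were Rxrg, Rdh10 (a retinol dehydrogenase), Aldh1a1 (a retinaldehyde dehydrogenase) and Crabp2 (a retinoic acid binding protein). Rdh10 had 7.58, 7.42, 7.50 and 7.45 with BMS641, against 6.89 and 7.19 in vehicle. None of the 21 passed the test against vehicle, as no gene did. Their median change over the 4 times was 0.16, beside 0.04 for all genes. The count above was 7 of 21 with BMS641, 6 with BMS753, 6 with BMS961 and 5 with ATRA, all against the same vehicle arrays. On arrays scaled to equal medians or quantiles it was 6 of 21 with BMS641.

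Cyp26a1 lay near the vehicle level at all 4 times with BMS641. Its level was 4.94, 4.86, 4.78 and 4.87 with BMS641, against 5.05 and 4.85 in vehicle, and the change over the 4 times was -0.09 (95% interval -0.68 to 0.50). Without vehicle replicate 1 the change was 0.01. With BMS753 Cyp26a1 was 6.56, 7.00, 6.16 and 5.57, highest at 6 h, and with ATRA 10.06, 10.30, 10.97 and 12.01. Under 0.1 µM BMS961 it was 8.04, 9.07, 8.94 and 9.14. BMS641 differed from BMS753 by -1.46 over the 4 times (95% interval -1.94 to -0.98; limma adjusted p = 0.14). It differed from ATRA by -5.97 (SE 0.22; limma adjusted p = 8.41e-08), and by -5.77 with the array set as a block, which passed as well.

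**Figure D2:**
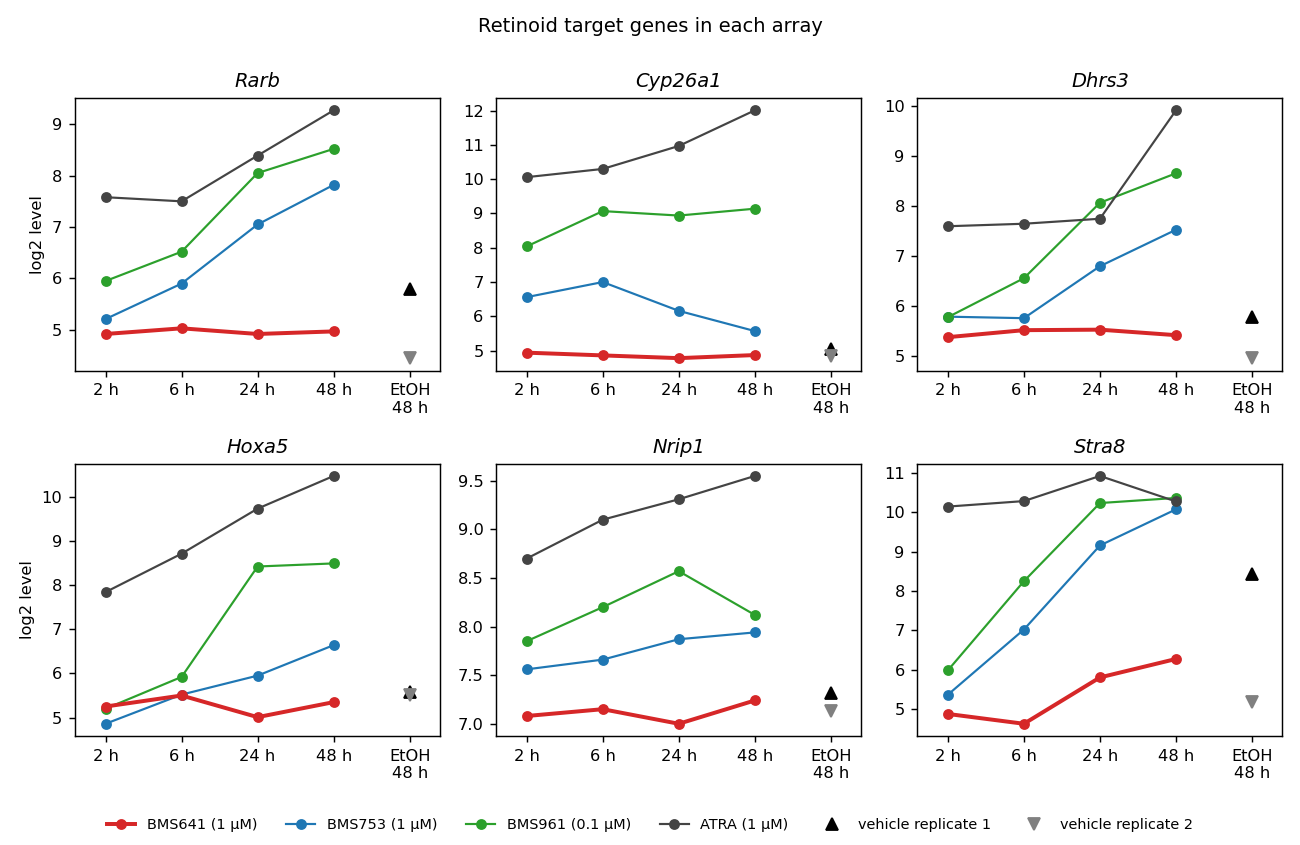
Log2 level of 6 retinoid target genes in each array, by time for each retinoid (lines, 1 array per point) and in the 2 vehicle arrays at 48 h (triangles). Rarb, Cyp26a1, Dhrs3, Hoxa5 and Nrip1 stay near the vehicle arrays with BMS641 (thick line) and lie higher with ATRA, and Stra8 reaches 6.27 with BMS641 at 48 h, between the vehicle values of 8.44 and 5.17.

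Further early targets gave the same picture. Dhrs3, a reductase that returns retinaldehyde to retinol, was 5.38, 5.52, 5.53 and 5.42 with BMS641, against 5.78 and 4.96 in vehicle. With BMS753 it was 5.79, 5.76, 6.80 and 7.53. Nrip1, a ligand-dependent corepressor, was 7.08, 7.15, 7.00 and 7.24 with BMS641, against 7.32 and 7.13 in vehicle, and with BMS753 it was 7.56, 7.66, 7.87 and 7.94. BMS641 differed from BMS753 by -1.01 for Dhrs3 (95% interval -1.66 to -0.36) and by -0.64 for Nrip1 (-0.90 to -0.38), and neither passed (limma adjusted p = 0.966 and 0.247). Stra6, the membrane receptor for retinol binding protein, was 5.88, 6.05, 5.81 and 5.75 with BMS641, against 6.06 and 5.65 in vehicle, and differed from BMS753 by -0.28 (95% interval -0.70 to 0.14). Of the 17 measured early target genes, 1 (Pdgfa) had all 4 BMS641 arrays above both vehicle arrays and none below. The shares of all genes were 10.6% above and 5.5% below. Of 19938 genes 5 lay 2-fold beyond both at some time with BMS641, and none of the 17 did. Against ATRA, 1 was higher and 8 were lower in BMS641 in limma, where 8.82% of all genes were called higher and 7.36% lower. Blocking on the array set left none of the 17 called.

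Hox genes, which retinoids switch on along their clusters, lay near vehicle with BMS641. Of 19 measured genes of clusters A and B, 1 (Hoxa9) had all 4 BMS641 arrays above both vehicle arrays and 1 (Hoxa5) below, where 10.6% of all genes lay above and 5.5% below. With arrays centred on their median or with quantile normalization 4 of the 19 lay below, beside 5.92% and 8.92% of all genes. The median change over the 4 times was -0.08, beside 0.04 for all genes. Hoxa5 was 5.25, 5.50, 5.01 and 5.35 with BMS641, against 5.57 and 5.52 in vehicle. With ATRA it was 7.84, 8.71, 9.73 and 10.47, and with BMS753 4.86, 5.52, 5.95 and 6.64. Hoxb4 was 4.86, 4.97, 4.93 and 5.22 with BMS641, against 6.29, 6.68, 6.99 and 7.52 with ATRA. Against ATRA 15 of the 19 were lower in BMS641 and none higher, where 7.36% of all genes were called lower and 8.82% higher. Only Hoxa5 of the 15 was still called once the array set was a block, at -3.87, and its difference to ATRA was -3.91 (limma adjusted p = 3.74e-08) without it.

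The genes with a DR5 repeat in their promoter window were few, and only Rarb and Cyp26a1 of them lay 2-fold above both vehicle arrays with any agent. The 32 windows belonged to 31 genes, of which 11 were measured. None of the 11 lay 2-fold above both vehicle arrays with BMS641 at any time, and 2 did with BMS753, 2 with BMS961 and 2 with ATRA. Of all 19938 genes, 5 lay 2-fold above or below both at some time with BMS641. That count was 74 with BMS753, 311 with BMS961 and 932 with ATRA. The mean change of the 11 over the 4 BMS641 arrays ran between -0.16 (Rarb) and 0.17 (Hbb-y). Of all genes 10.6% had all 4 BMS641 arrays above both vehicle arrays and 5.5% below, and none of the 11 genes had either. Besides Rarb and Cyp26a1 they included Blvrb, a biliverdin reductase, and Tnfsf13b, a cytokine of B cells. A repeat in a window is a match of letters and was not tested for binding.

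The genes whose levels over the 6 arrays followed Rarb most closely were Slc35e3 (Pearson r = 0.9994), Tmem94 (0.9984), Kmt5c (0.9978), Sik1 (0.9971) and Zfp358 (0.9968). The 6 arrays share 4 nearly equal BMS641 levels and 2 vehicle levels on either side. Slc35e3 was 7.93, 7.98, 7.92 and 7.97 with BMS641, against 8.36 and 7.72 in vehicle, so it too lay between the vehicle arrays.

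A small set of genes differed between 2 h and 48 h of BMS641, and most of them differed the same way, and by more, with BMS753. This comparison uses no vehicle array. Between 2 h and 48 h, 30 genes (0.15%) differed at least 2-fold, 18 higher at 48 h (0.0903% of all genes) and 12 lower (0.0602%). The gene just inside the 2-fold limit was Coch, at -1.006, and the gene just outside was BC061237, at 0.993. In 25 of the 30 the level went one way through the 4 times, where 8.17% of all genes did. A choice by the first and last time favours such genes. In limma, late against early called none of 19938 genes (0.0% in either direction; 390 at an unadjusted p under 0.05), and 7 of the 30 had an unadjusted p under 0.05.

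Stra8, a gatekeeper of meiosis that retinoic acid induces, was 4.87, 4.62, 5.80 and 6.27 with BMS641 at 2, 6, 24 and 48 h. With BMS753 it was 5.36, 7.02, 9.16 and 10.08, so the step from 2 to 48 h was 1.39 with BMS641 and 4.72 with BMS753. In vehicle replicates 1 and 2 it was 8.44 and 5.17, and the BMS641 level at 48 h lay between them. Dmrt1, a testis and germ cell factor, was 6.59, 7.04, 7.55 and 7.89 with BMS641, 6.95, 7.51, 8.75 and 9.06 with BMS753, and 9.48 and 6.47 in vehicle. Tbx3, a T-box factor of the naive stem cell network, was 7.97, 8.02, 8.57 and 9.03 with BMS641, 8.22, 8.54, 9.78 and 10.45 with BMS753, and 10.75 and 7.27 in vehicle. Dusp9, a phosphatase that damps ERK, was 8.45, 9.01, 9.40 and 9.54 with BMS641, 9.28, 10.10, 11.07 and 11.22 with BMS753, and 10.55 and 8.02 in vehicle. Each of these 4 genes was lowest at 2 h or 6 h and highest at 48 h in both agents, and in each vehicle replicate 1 was high and replicate 2 low. Epha7, an ephrin receptor, had the largest step up, 1.47 with BMS641 and 2.36 with BMS753. Satb1, a chromatin organiser, stepped by 1.34 with BMS641 and 2.08 with BMS753, and Macroh2a2, a histone variant, by 1.27 with BMS641 and 2.36 with BMS753.

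Among the 12 that were lower at 48 h, Esrp1, an epithelial splicing regulator, was 8.12, 7.57, 7.28 and 6.25 with BMS641 and 7.62, 7.45, 6.39 and 5.10 with BMS753, and it was 6.30 and 8.07 in vehicle. Otx2 was 9.27, 8.84, 8.67 and 8.10 with BMS641 and 8.40, 8.28, 7.40 and 7.12 with BMS753, against 9.63 and 9.46 in vehicle. Otx2 therefore lay below both vehicle arrays at every time with BMS641, and the 2 vehicle arrays lay close together. Over the 4 times Otx2 differed from vehicle by -0.83 (95% interval -1.54 to -0.11; limma adjusted p = 0.604). Trh, the precursor of thyrotropin-releasing hormone, was 12.10, 11.93, 11.31 and 10.78 with BMS641 and 11.86, 11.96, 9.99 and 9.39 with BMS753, and it was 11.17 and 12.05 in vehicle. Grhl2 (an epithelial transcription factor), Cldn6 (a tight junction claudin), Pim2 (a survival kinase) and Dusp4 (an ERK phosphatase) were lower by 1.32, 1.08, 1.36 and 1.02 at 48 h than at 2 h with BMS641.

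Of the 30 genes, 28 went in the same direction between 2 and 48 h with BMS753, where 52.2% of all genes went the way they went with BMS641. In 25 the BMS753 step was at least 2-fold the same way, where 1.5% of all genes stepped at least 2-fold in either direction. In 25 the BMS753 step was larger than with BMS641. The median step in the BMS641 direction was 1.77 with BMS753, beside 1.11 with BMS641. With 0.1 µM BMS961, 27 went the same way (57.0% of all genes) and the median step was 1.79. With ATRA 14 went the same way (48.1% of all genes) and the median step was -0.12. The 4 agents share no array in these steps, but time in culture ran along with each of them, and its part was not tested. In 25 of the 30 genes vehicle replicate 1 was nearer to the BMS641 level at 48 h, and in 28 vehicle replicate 2 was nearer to the level at 2 h, although both vehicle arrays were made at 48 h. The BMS641 level at 48 h lay between the vehicle arrays in 19 genes and beyond both in 11. These positions were not counted over all genes, so they cannot be called particular to the 30. By median absolute difference over all genes, the BMS641 array at 2 h lay 0.13 from vehicle replicate 2 and 0.216 from replicate 1. At 48 h it lay 0.144 from replicate 2 and 0.176 from replicate 1.

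**Figure D3:**
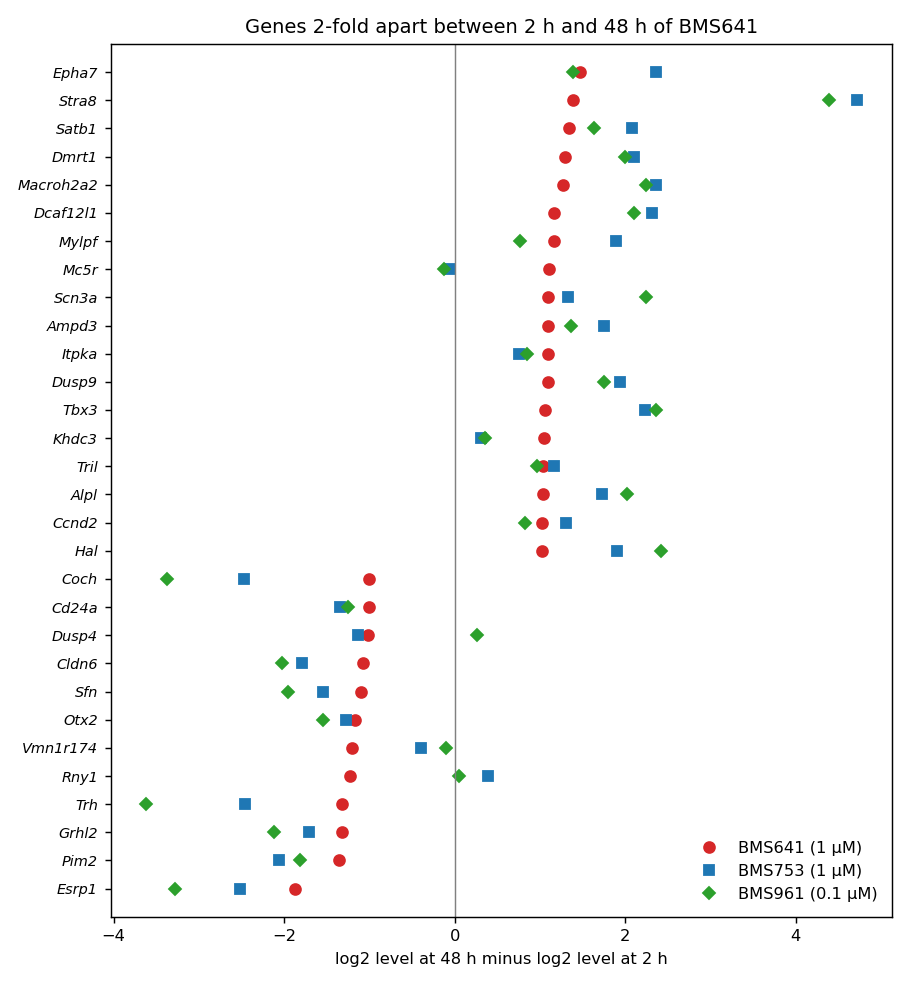
Log2 level at 48 h minus log2 level at 2 h for the 30 genes at least 2-fold apart in BMS641 (circles), with the same step in BMS753 (squares) and in BMS961 at 0.1 µM (diamonds). The BMS753 square lies on the same side of 0 as the BMS641 circle in 28 of the 30 genes, and farther from 0 in 25.

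**Figure D4:**
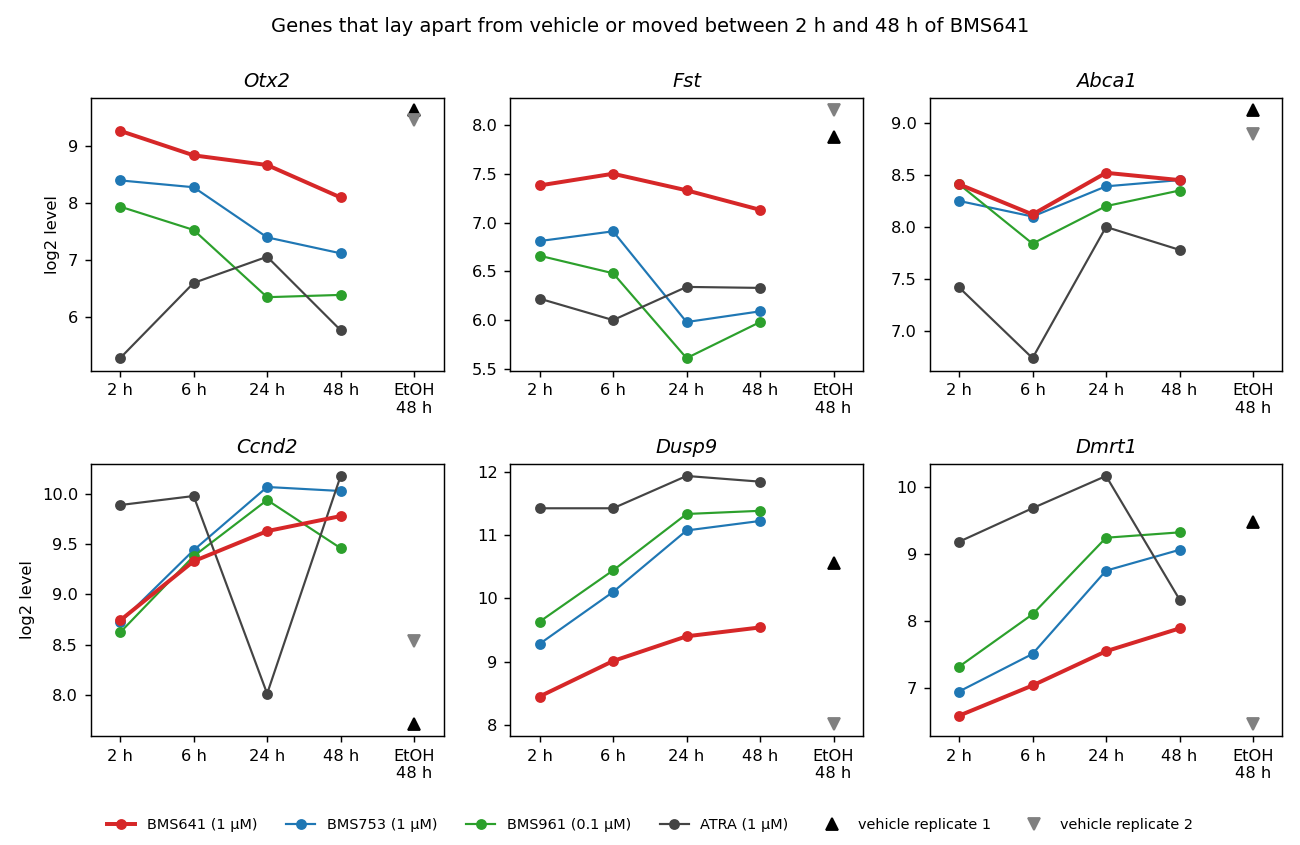
Log2 level of 6 genes in each array, by time for each retinoid (lines, 1 array per point) and in the 2 vehicle arrays (triangles). With BMS641, Otx2 is 8.10 and Ccnd2 9.78 at 48 h, both beyond the vehicle arrays, Fst and Abca1 lie below both vehicle arrays at every time, and Dusp9 and Dmrt1 climb between the 2 vehicle values.

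Ccnd2 was the gene farthest above both vehicle arrays at 24 and 48 h. It was 8.74, 9.33, 9.63 and 9.78 with BMS641, against 7.71 and 8.53 in vehicle, so all 4 arrays lay above both. With BMS753 it was 8.72, 9.44, 10.07 and 10.03, and the difference between BMS641 and BMS753 was -0.20 (95% interval -0.94 to 0.55). Against vehicle it differed by 1.25 over the 4 times (95% interval 0.33 to 2.16; limma adjusted p = 0.561). Ceacam1, an adhesion molecule, was next at 24 h, with 9.74 in BMS641 against 8.51 and 8.86 in vehicle. At 48 h Wt1, the Wilms tumour zinc finger factor, was 6.92 with BMS641 against 5.95 and 5.87 in vehicle, and Prmt8, an arginine methyltransferase, was 6.33 against 5.34 and 5.22. At 2 h the genes farthest out were Svs3b, Vmn1r174 and Sprr2e above and Olfr1148, Zfp600 and Zfp935 below. Of these, Vmn1r174, a pheromone receptor gene, was 4.76 with BMS641 at 2 h and 3.93, 3.61 and 3.55 later, against 3.77 and 3.49 in vehicle. At 6 h, besides the 3 genes below, the farthest above were Ccnd2, Plpp2 and Rusc1. Slc10a4 and Efna3 at 24 h, and Efna3 and Dusp4 at 48 h, were farthest below after Otx2.

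No gene had all 4 BMS641 arrays at least 1.5-fold above both vehicle arrays (0.0%) or below both (0.0%). With a margin of 1.2-fold, 59 genes (0.296%) lay above and 42 (0.211%) below in all 4. With no margin the counts were 2119 (10.6%) above and 1096 (5.5%) below, and they were 1538 and 1181 with arrays centred on their median and 1744 and 1779 with quantile normalization. The excess of genes above over genes below thus depended on the scaling. The genes named next were chosen from the top of these margins after their values were seen, and none passed the limma test.

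Among genes below vehicle, Fst, which encodes follistatin, a secreted inhibitor of activin, was 7.38, 7.50, 7.33 and 7.13 with BMS641, against 7.88 and 8.15 in vehicle. It differed by -0.68 over the 4 times (95% interval -0.98 to -0.38; limma adjusted p = 0.561). Fst was lower still with BMS753, at 6.81, 6.91, 5.98 and 6.09, and BMS641 differed from BMS753 by 0.89 (95% interval 0.64 to 1.13; limma adjusted p = 0.071). Dropping the common steps between times from the fit made Fst the only gene called between BMS641 and BMS753. Abca1, the cholesterol efflux pump, was 8.41, 8.12, 8.52 and 8.45 with BMS641, against 9.12 and 8.89 in vehicle. It differed by -0.63 (95% interval -0.92 to -0.35; limma adjusted p = 0.561), and by -0.75 without vehicle replicate 2, where it passed. BMS753 gave nearly the same Abca1 levels, and the difference was 0.08 (95% interval -0.16 to 0.31). Apoe, an apolipoprotein that takes up effluxed lipid, was 10.84, 10.60, 10.67 and 10.52 with BMS641, against 11.96 and 10.99 in vehicle. Of the 11 measured LXR target and lipid efflux genes these 2, Abca1 and Apoe, were the ones below in all 4 arrays, where 5.5% of all genes lay below, and none was above. The count was also 2 with BMS753 and 2 with BMS961, and with BMS641 it was 3 on centred arrays and with quantile normalization. Tmem154, Rsl1 and Lrrc31 had the widest margins below, 0.42 to 0.43 on the log2 scale.

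Among genes above vehicle, Dad1, a subunit of the oligosaccharyltransferase, was 10.45, 10.60, 10.26 and 10.31 with BMS641, against 9.42 and 9.83 in vehicle. Plpp2, a lipid phosphatase, was 8.27, 8.71, 8.58 and 8.68 with BMS641, against 7.83 and 7.79 in vehicle. Hspb1, a small heat shock protein, was 11.15, 11.32, 10.94 and 10.96 with BMS641, against 10.43 and 10.55 in vehicle. The 3 genes differed from vehicle by 0.78, 0.75 and 0.60 over the 4 times. BMS753 lay within 0.08 of BMS641 for each of them on that mean, at a difference of 0.05 for Dad1 (95% interval -0.19 to 0.30), -0.08 for Plpp2 (-0.48 to 0.33) and 0.04 for Hspb1 (-0.15 to 0.24).

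Ribosomal protein genes lay slightly below vehicle. Of 15 measured, 11 had all 4 BMS641 arrays below both vehicle arrays and none above, where 5.5% of all genes lay below, and 10 and 9 did with quantile normalization and centred arrays. The median change of the list was -0.16 over the 4 times, and none passed the test against vehicle, as no gene did. Rps4x was 12.64, 12.54, 12.59 and 12.63 with BMS641, against 13.02 and 12.83 in vehicle, and Rpl5 was 12.40, 12.37, 12.43 and 12.45 with BMS641, against 12.67 and 12.64 in vehicle. Of the same 15 genes 7 lay below with BMS753, 4 with BMS961 and 3 with ATRA. The ribosomal protein genes outside the list with wide margins were Rpl34 and Rps12, and Rps12 was 12.20, 12.13, 12.22 and 12.15 with BMS641, against 12.70 and 12.61 in vehicle.

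Several lists that lay apart from the vehicle mean did so against vehicle replicate 1. The 17 measured cholesterol synthesis genes had a median difference of 1.17 to vehicle replicate 1 and 0.07 to vehicle replicate 2. Insig1, which holds the sterol sensor in the ER, was 10.95, 10.69, 10.76 and 10.61 with BMS641, against 9.20 and 10.60 in vehicle. In 8 of the 17 all 4 arrays lay above both vehicle arrays, in 3 with arrays centred on their median and in 7 with quantile normalization. The 22 measured genes of the hypoxia and glycolysis list had medians of 0.73 and 0.06 against the vehicle replicates 1 and 2. They include Pigq, to which the list name Gpi1 was matched and which is not a glycolysis enzyme. Ldha, lactate dehydrogenase A, was 13.27, 13.20, 13.19 and 13.18 with BMS641, against 11.71 and 13.14 in vehicle. Slc2a1, the glucose transporter, was 12.69, 12.83, 12.83 and 12.85 with BMS641, against 11.57 and 12.41 in vehicle, and so lay above both. Of the 22 genes 8 lay above in all 4 arrays and 1 below, with 3 above on centred arrays and 8 with quantile normalization. Of all genes 10.6% lay above in all 4 arrays and 5.5% below. These shares were 7.71% and 5.92% with centred arrays, and 8.75% and 8.92% with quantile normalization. Of 18 MYC and cyclin genes 6 lay above with BMS641 and none below. Over the same vehicle arrays 7 lay above with BMS753, 4 with BMS961 and 0 with ATRA, and with ATRA 1 lay below. The shares of all genes above were 8.13% with BMS753, 7.05% with BMS961 and 5.8% with ATRA. Ccnd1, a D-type cyclin and 1 of the 6, was 10.41, 10.51, 10.51 and 10.47 with BMS641, against 9.58 and 10.10 in vehicle. Of 23 DNA replication genes 6 lay above and none below, and 4 lay above with centred arrays and 7 with quantile normalization. Of 21 mitosis genes 2 lay above and 5 below, and 3 lay below with centred arrays and 7 with quantile normalization. No gene of these lists passed against vehicle, as no gene of all did, and what set the 2 vehicle arrays apart was not tested.

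**Figure D5:**
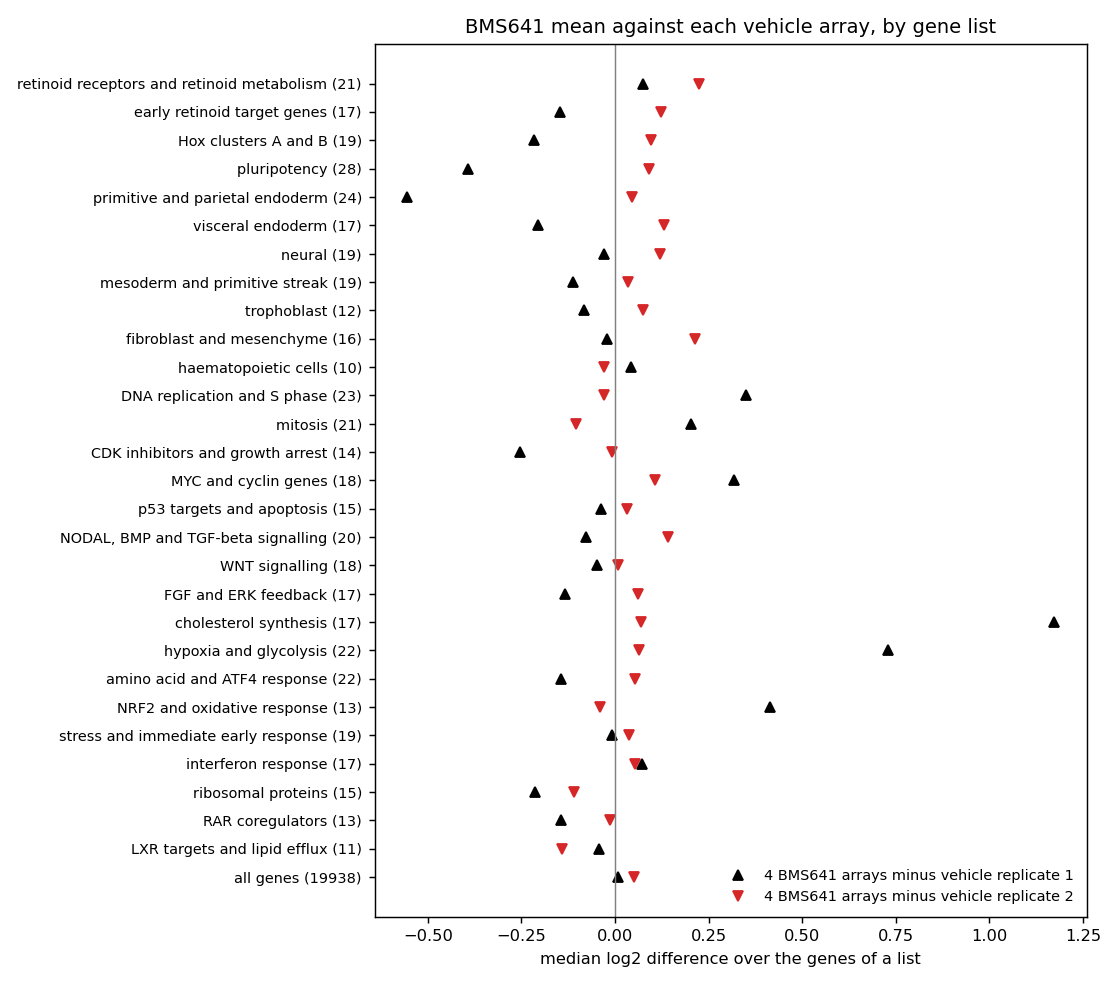
Median log2 difference between the mean of the 4 BMS641 arrays and vehicle replicate 1 (upward triangles) or vehicle replicate 2 (downward triangles) for each gene list, with its number of measured genes in brackets, and for all genes. Cholesterol synthesis lies at 1.17 and hypoxia and glycolysis at 0.73 against replicate 1, and both lie near 0 against replicate 2.

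The markers of F9 embryonal carcinoma were at like levels with BMS641 and in vehicle. In such bulk RNA, fewer cells of a type and less RNA per cell cannot be told apart. All 8 markers were measured, at levels of 8.89 to 12.19 with BMS641 and 8.20 to 12.20 in vehicle, and the log2 of their summed level was 14.06, 14.06, 14.07 and 14.06 with BMS641, against 14.34 and 13.96 in vehicle. Pou5f1, a core pluripotency factor, was 12.07, 12.19, 12.13 and 12.12 with BMS641, against 12.20 and 12.08 in vehicle. Nanog was 11.47, 11.43, 11.50 and 11.50 with BMS641, against 12.07 and 11.08 in vehicle. Of 28 pluripotency genes 1 (Utf1) lay above both vehicle arrays in all 4 and 2 below both, Otx2 and, by under 0.01, Tcl1. These are 3.57% and 7.14% of the list, beside 10.6% and 5.5% of all genes. Klf4 was 7.52, 7.63, 7.75 and 7.96 with BMS641, against 10.46 and 7.20 in vehicle, so the BMS641 arrays lay near vehicle replicate 2. Dnmt3l, a cofactor of de novo DNA methylation, was 10.54, 10.37, 10.12 and 9.68 with BMS641 and 10.46, 10.12, 8.98 and 7.84 with BMS753, against 9.03 and 10.49 in vehicle.

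Endoderm genes stayed near vehicle replicate 2. Gata6, the factor that starts primitive endoderm, was 6.05, 6.16, 6.21 and 6.40 with BMS641, against 7.08 and 6.03 in vehicle, and it was 6.35, 6.60, 7.41 and 8.03 with BMS753. The difference between BMS641 and BMS753 was -0.89 (95% interval -1.68 to -0.11; limma adjusted p = 1.0). Of 24 primitive and parietal endoderm genes 1 (Thbd, by under 0.01) lay above both vehicle arrays in all 4 and 3 (Plat, Fst and Srgn) below both, where 10.6% of all genes lay above and 5.5% below. The count below was 6 of 24 (25.0%) with centred arrays and with quantile normalization, where 5.92% and 8.92% of all genes lay below. The median difference of the list was -0.56 to vehicle replicate 1 and 0.05 to vehicle replicate 2. The summed level of 6 parietal endoderm markers was 10.63, 10.59, 10.43 and 10.51 on the log2 scale with BMS641, against 11.11 and 10.55 in vehicle. Visceral endoderm markers had summed log2 levels of 7.4 to 7.73 with BMS641, against 7.8 and 7.23 in vehicle. Trophoblast markers had 6.81 to 6.83, against 6.84 and 6.75. Fibroblast markers had 8.11 to 8.46, highest at 6 h, against 8.31 and 8.05. Neural markers had 9.18 to 9.57, highest at 48 h, against 9.32 and 9.17. Haematopoietic markers had 7.27 to 7.52, highest at 2 h, against 7.26 and 7.36. No gene of these lists was called against vehicle, as none of all 19938 genes was.

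At matched dose and times 2 pairs of agents were compared. BMS641 against BMS753 over the 4 times gave no call in limma (0.0% higher and 0.0% lower; lowest adjusted p 0.071; 701 genes at an unadjusted p under 0.05), with a median 95% interval of 0.246 either side. With matched times as a block it called none either (1340 genes at an unadjusted p under 0.05). BMS641 against ATRA gave 3225 calls, 1758 higher (8.82% of all genes) and 1467 lower (7.36%). Centring the arrays on their median moved the median difference of all genes to 0.14, against 0.04 as deposited, and gave 3159 higher and 1087 lower. Leaving out any 1 of the 8 arrays left between 1048 calls (without BMS641 at 48 h) and 2958 (without ATRA at 24 h). The count was 1092 to 1610 without BMS641 at 2, 6 or 24 h, and 1249 and 1813 without ATRA at 6 and 2 h. A fit of the 8 arrays alone with matched times as a block, added after seeing the data, called 564 higher and 450 lower. BMS641 was higher than ATRA in 12 and lower in 3 of the 28 pluripotency genes, the same counts as on centred arrays. It was higher in 1 and lower in 14 of the 24 endoderm genes, and higher in 1 and lower in 12 on centred arrays. With the assumed array set as a block, which sets ATRA against vehicle replicate 1 and BMS641 against replicate 2, 4 genes passed: Cyp26a1 at -5.77, Hoxa5 at -3.87, Slc26a2, a sulfate transporter, at -1.50, and Prdm14, a naive pluripotency regulator, at 1.88. For the other genes called against ATRA, agent and such a set cannot be told apart.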

How the data were processed

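F9 total RNA was labelled with biotin and hybridised to Affymetrix whole-transcript arrays, per the labels' protocols. For each of 18 arrays the authors deposited a log2 level per probe set. The submitters' processing notes name RMA and Affymetrix Expression Console 1.1. The sources used here give no scan date, no detection call and no statement of which arrays shared a normalization, so dim genes could not be set aside by a call. Precision is limited by how few arrays there are.

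The values were used as deposited. Of 35556 probe sets 21789 had 1 gene symbol in the platform annotation, 1621 had several and 12146 were not listed and so not named, and 21698 were matched by Entrez number to the RefSeq gene table. Where a gene had more than 1 probe set (999 genes), the brightest on average stood for it, which left 19938 genes. Promoters came from RefSeq windows.

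limma 3.58.1 (R 4.3.3) modelled the 18 arrays by 9 group means, 1 for vehicle and an early and a late one per retinoid, plus common steps between 2 and 6 h and between 24 and 48 h. The fit had 7 residual degrees of freedom, the prior added 4.55, and the spread rests on the vehicle pair and on how far agents depart from the common steps. It tested 6 contrasts, each adjusted by Benjamini-Hochberg over 19938 genes. Single times, steady genes (all 4 BMS641 arrays beyond both vehicle arrays) and the step between 2 and 48 h are values with no test. The fit was tested on simulated data. Tables and figures were made with Python 3.11.15, pandas 2.3.3, numpy 2.4.6 and matplotlib 3.10.9.

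The members, the 28 gene lists (497 of 532 members measured) and the comparisons were chosen with earlier results of these data known, and the step between 2 and 48 h was chosen after its values were seen. Named genes were, by rule, the 15 steady genes at 1.5-fold with the widest margin either way (none qualified), the 10 largest calls either way per tested comparison on the same side at each time, the 3 genes farthest out either way at each time, list members, and the 5 genes most like Rarb. Other settings were quantile normalization, median centring, genes above the median level, the mean of probe sets, trend and robust eBayes, an assumed array set as a block, fewer arrays, other folds, single vehicle arrays, and each array left out. The fits without common steps and with matched times as a block were added after seeing the data.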

Additional observations from a re-analysis of the deposited data

Results flagged for a closer look

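The 20 genes below differed between BMS641 and ATRA over the 4 matched times in limma, at adjusted p of 3.74e-08 to 0.00688, with BMS641 on the same side of ATRA at every time. Each value is the BMS641 minus ATRA difference on the log2 scale. Lower with BMS641 were Cyp26a1 at -5.97, Stra8 at -5.02, Calcoco2 at -4.31, Aqp3 at -4.21, Hoxa5 at -3.91, Rarb at -3.22, Tll1 at -2.9, Gata6 at -2.81, Islr2 at -2.8 and Srgn at -2.8. Higher with BMS641 were Dnmt3l at 2.82, Otx2 at 2.54, Krt17 at 2.48, Coch at 2.42, Slc27a2 at 2.32, Gna14 at 2.18, Ndrg1 at 2.18, Ntn1 at 2.08, Sulf1 at 2.08 and Pim2 at 2.05. A block was tried that assumes an array set of ATRA with vehicle replicate 1 and another of the BMS compounds with replicate 2, which no label names. Under it Cyp26a1 at -5.77 and Hoxa5 at -3.87 still passed and the other 18 did not, among them Stra8 at -1.76, Rarb at -1.89, Srgn at -0.21 and Otx2 at 2.71.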

How the results depend on the processing

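Counts against vehicle moved most with the choice of vehicle array. With single arrays left out the fit called 0 to 1024 genes late, 0 to 1466 early and 0 to 1738 over the 4 times, and 1048 to 2958 against ATRA, 0 to 0 against BMS753 and 0 to 0 late against early. The highest counts against vehicle came without vehicle replicate 2, and without replicate 1 the late count was 2. Blocking on the assumed array set gave 2 calls late and 4 against ATRA, and blocking on matched times 1014 against ATRA and 0 against BMS753. Without common steps 1 gene (Fst) was called against BMS753. Steady genes numbered 101 at 1.2-fold, 104 against the vehicle mean, 1160 against vehicle replicate 1 alone and 41 against replicate 2 alone, and 0 to 5 with single BMS641 arrays left out. At 1.5-fold, 36, 115, 25 and 37 genes lay beyond both vehicle arrays at 2, 6, 24 and 48 h. At 2-fold the counts were 597, 532, 470 and 379 against replicate 1 alone and 5, 50, 28 and 64 against replicate 2 alone. With quantile normalization 1 gene lay beyond both at 2 h and 4 at 48 h. Between 6 h and 48 h 15 genes were 2-fold apart, and between 2 h and 24 h 4.

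Over the 4 times against vehicle, Rarb reversed to 0.50 with the array set as a block or without vehicle replicate 1. Against vehicle these 2 settings amount to the same fit, as the block sets vehicle replicate 1 aside. Cyp26a1 reversed to 0.01 in that fit and to 0.07 without BMS641 at 6 h. With single arrays left out Rarb ranged between -0.83 and 0.50 and Cyp26a1 between -0.25 and 0.07. With the block Coch (-0.26), Gna14 (-0.35), Krt17 (-0.57) and Tll1 (0.0) reversed against ATRA. The causes were not tested. Over all settings, left-out arrays included, 80 counts were equal to or within 1.5 times of those reported, and 36 moved farther. Most of the 80 were counts of 0 that stayed at 0. Of the values of single genes, 462 kept their direction and side of the threshold and 2 newly passed it. Blocking on the array set made 21 values miss a threshold they had passed, the 4 reversed against ATRA among them, and blocking on matched times made 1 miss it (Srgn, against ATRA).

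No paired analysis was possible because only the vehicle arrays carry replicate numbers, so arrays were paired by time alone, as above. With 1 array per time and no label for a batch, small changes of BMS641 are bounded by the gap between the 2 vehicle arrays, and dim genes have no detection call.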
